A study of Mus musculus with 16 samples.

Results

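The genes described here are 10 genes of the MHC class I pathway: the class I heavy chains *H2-K1*, *H2-D1*, *H2-M3* and *H2-T3*, their light chain *B2m*, the peptide transporter subunits *Tap1* and *Tap2*, the loading factor *Tapbp*, the peptide-trimming enzyme *Erap1* and the transcriptional regulator *Nlrc5*. They were taken by name from the 22396 gene symbols listed for each mouse. Each library was polyA RNA of EpCAM+ cells sorted from the distal colonic mucosa of 1 mouse, and 16 mice were used. Control mice carried loxP-flanked *Tnfrsf1b* (Tnfr2-f/f), the gene of TNF receptor 2, and the labelled knockouts carried the same floxed alleles with Cre driven by the villin promoter (Vil1::Cre;Tnfr2-f/f), which is active in intestinal epithelium. The groups were 4 controls and 5 labelled knockouts given water, and 3 controls and 4 labelled knockouts given 3% dextran sulfate sodium (DSS), a colitis-inducing agent, for 6 days and dissected on day 12. The labels gave no age. The study's own description differs from the labels in giving a somewhat higher DSS concentration, in treating the water mice as uninjured at the start of the experiment, and in taking the DSS cells from injured stretches of the distal colon, so region and treatment cannot be told apart either.

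MHC class I molecules display short peptides from the cell's own proteins to CD8+ T cells. A heavy chain folds with beta-2 microglobulin in the endoplasmic reticulum, peptides enter through the Tap1 and Tap2 transporter, tapasin (*Tapbp*) holds the empty molecule at the transporter, and the aminopeptidase Erap1 trims peptides to length. Nlrc5 and interferon-induced factors drive transcription of much of the pathway, and both epithelial cells and leukocytes use it.

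Levels are TPM, a share of the library's transcripts that is corrected for transcript length, so listed transcripts can be compared within a mouse. Only principal transcripts were listed. GENCODE M21 holds 16 transcripts for *H2-K1*, 4 for *H2-D1* and 9 for *Tapbp*, but 1 each for *B2m* and *H2-M3*. Orders, shares and ratios between members therefore leave out unlisted transcripts, to an extent that differs by gene. The 2 treatments were deposited in tables that had been scaled separately, so DSS and water are compared here by level only and no test was run between them. Treatment and cage cannot be told apart, because no cage held both treatments. The 9 water mice came from cage a (4 males) and cage b (5 females), and the 7 DSS mice, all female, from cage c (2 mice) and cage d (5 mice). Summed TPM ran from 487469 to 861109 per mouse, with only principal isoforms listed, and between 10310 and 10961 genes reached 1 TPM. The TPM give no read depth, but the authors' mean of estimated counts, given here as a geometric mean per treatment, shows a difference. For *H2-K1* it was 1775 reads with water and 1590 after DSS, although its mean TPM was 439 and 194. For *Tapbp* it was 400 and 543 reads, with a mean TPM of 51.7 and 34.0. So 1 TPM of these genes stood for fewer reads in the water mice, where low values and zeros are less certain. The epithelial markers were high in both treatments, with a mean log2(TPM + 1) over 10 genes of 8.47 to 8.86 in the water mice and 8.66 to 9.16 after DSS, but the sorted cells of the water mice also held much leukocyte RNA. The mean log2(TPM + 1) of 19 leukocyte markers was 3.93 to 5.30 in the water mice and 0.94 to 1.88 after DSS, and *Cd8a* was listed at 0 in 7 of 9 water mice and in 7 of 7 DSS mice. The part of this RNA in the differences below was not tested.

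*B2m* was the most abundant member in the water mice, with a median of 944 TPM, followed by *H2-K1* at 431 TPM and *H2-D1* at 399 TPM. These 3 transcripts made up 94.3% to 95.7% of the summed TPM of all 10 members in each water mouse. *Tapbp* had a median of 47.4 TPM, *Erap1* of 12.7 TPM, *Tap1* of 10.2 TPM and *H2-M3* of 9.46 TPM. *Tap2* with a median of 1.86 TPM and *Nlrc5* with 1.16 TPM were near the limit of measurement, and *H2-T3* was listed at 0 in 7 of 9 water mice. Neighbours in this order overlapped over mice for *B2m*, *H2-K1* and *H2-D1*, for *Erap1*, *Tap1* and *H2-M3*, and for *Tap2*, *Nlrc5* and *H2-T3*. Within each water mouse *B2m* was above *H2-K1*, while the ratio of *H2-D1* to *H2-K1* ran from 0.808 to 1.04. After DSS the sum over the 10 members was 723 to 1057 TPM per mouse, below the range of 1299 to 2508 TPM in the water mice.

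The heavy chain *H2-K1* encodes a classical class I molecule that presents peptides to CD8+ T cells. Its gene lies on the minus strand at chr17:33996017-34000347 (GRCm38). It measured 436, 358, 396 and 502 TPM in the water controls and 421, 431, 444, 567 and 397 TPM in the water labelled knockouts. After DSS it measured 195, 157 and 300 TPM among controls and 215, 173, 167 and 151 TPM among labelled knockouts. Every DSS mouse was below every water mouse, and the mean after DSS was 0.514 of the water mean among controls and 0.39 among labelled knockouts. On the log2(TPM + 1) scale the difference (DSS minus water) was -0.998 among controls and -1.35 among labelled knockouts.

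*H2-D1*, the other classical heavy chain listed here, lies at chr17:35262730-35267499 on the plus strand. The water controls had 421, 373, 343 and 406 TPM and the water labelled knockouts 399, 377, 408, 467 and 377 TPM. After DSS the controls had 205, 165 and 297 TPM and the labelled knockouts 251, 162, 177 and 175 TPM. As deposited the treatments did not overlap, and the mean ratio of DSS to water was 0.577 among controls and 0.472 among labelled knockouts. Words of 31 bases were taken from the GENCODE M21 entries of these transcripts, which for *H2-K1* is another version than the listed one. Of these words, 76.7% for *H2-K1* and 72.5% for *H2-D1* occurred in no transcript of another gene. Part of their reads could thus be split between near-identical heavy chains, and their values are uncertain to that extent. The ratio of *H2-D1* to *H2-K1* within a mouse, which does not depend on the scaling of a table, was 0.911 ± 0.075 (SD, n = 9) with water and 1.06 ± 0.0835 (SD, n = 7) after DSS, and its ranges overlapped.

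*H2-M3*, a non-classical heavy chain known for presenting N-formylated peptides, lies at chr17:37270220-37274484. It stood at 12.2, 7.50, 6.61 and 14.2 TPM in the water controls and at 7.38, 9.46, 9.08, 14.2 and 9.78 TPM in the water labelled knockouts. After DSS it stood at 2.60, 3.45 and 4.17 TPM among controls and at 3.04, 4.29, 3.42 and 3.72 TPM among labelled knockouts. All DSS mice were below all water mice, with a difference of -1.29 among controls and -1.23 among labelled knockouts. *H2-T3*, which encodes the thymus leukaemia antigen, a ligand of CD8 alpha homodimers, went the other way but at very low levels. It was listed at 0.789 TPM in water control 3, at 0.691 TPM in 1 water mouse labelled knockout and at 0 in the other water mice. The DSS controls had 1.30, 1.96 and 1.45 TPM and the DSS labelled knockouts 0.360, 5.17, 0 and 1.41 TPM. The DSS controls were above all water controls, while the labelled knockouts overlapped, and the authors' mean after DSS corresponds to only 11.4 estimated reads.

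*B2m*, at chr2:122147686-122153083, encodes the light chain shared by all class I molecules. It measured 817, 758, 486 and 1162 TPM in the water controls and 580, 953, 1058, 1355 and 944 TPM in the water labelled knockouts. After DSS it measured 581, 412 and 269 TPM among controls and 417, 363, 462 and 328 TPM among labelled knockouts. The means were lower after DSS, at 0.522 of the water mean among controls and 0.401 among labelled knockouts, but the controls overlapped, because water control 3 with 486 TPM was below DSS control 1 with 581 TPM. The ratio of *B2m* to the sum of *H2-K1* and *H2-D1* within a mouse was 1.07 ± 0.245 (SD, n = 9) with water and 1.07 ± 0.337 (SD, n = 7) after DSS.

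**Figure D1:**
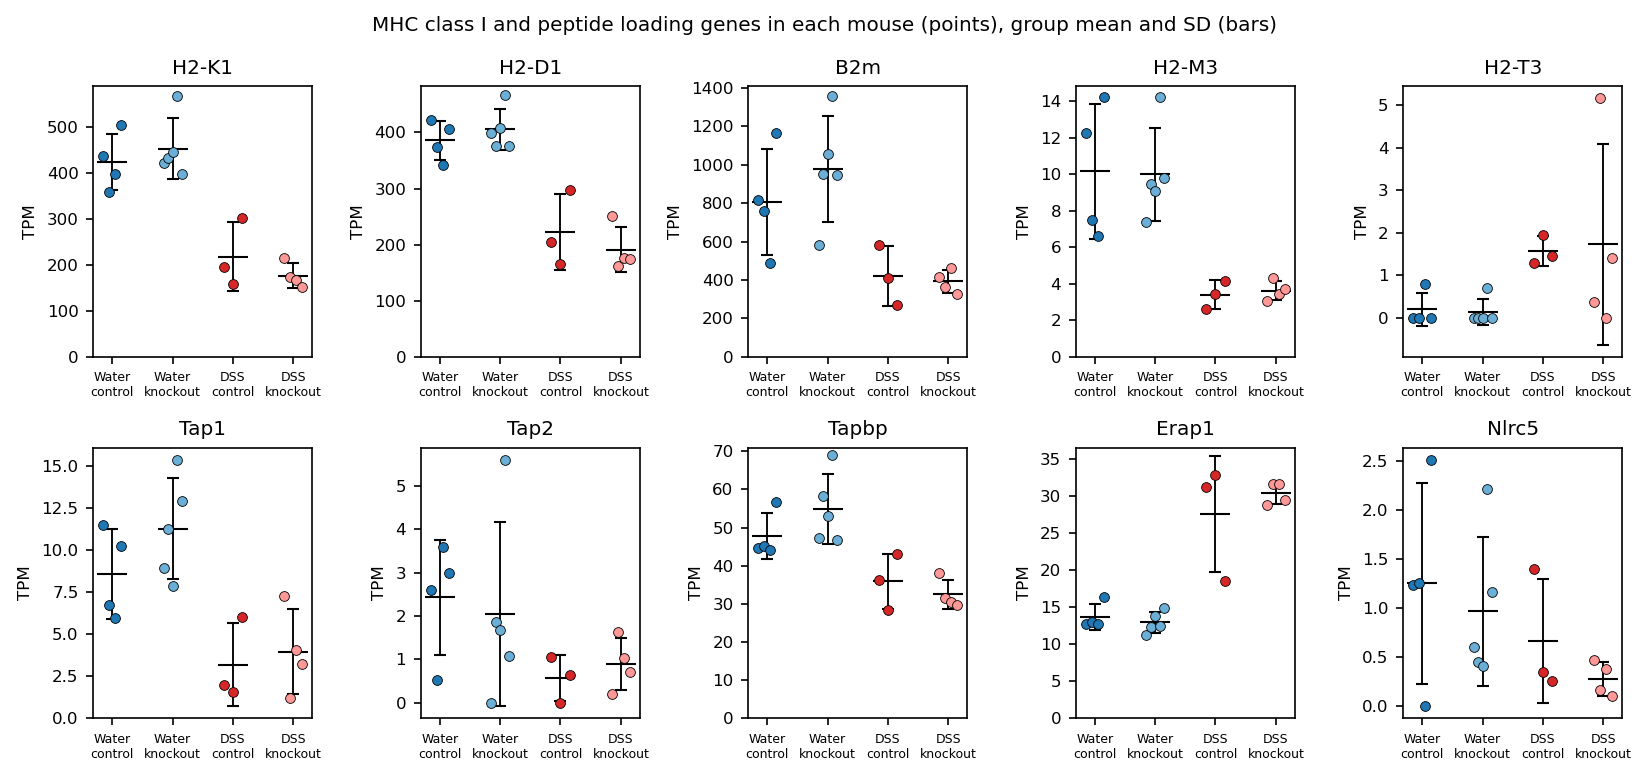
TPM of each of the 10 genes (y axis, a separate linear scale for each gene) in each mouse, by treatment and labelled genotype (x axis); points are mice, and bars give the group mean and SD. *H2-K1*, *H2-D1*, *H2-M3* and *Tapbp* were lower in all 7 DSS mice than in all 9 water mice as deposited, and *Erap1* was higher in all of them, while *H2-D1*, *Tapbp* and *Erap1* each overlapped on at least 1 other scale.

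Of the loading genes, *Tapbp* at chr17:33915899-33929292 was the most abundant. The water controls had 44.6, 45.3, 44.2 and 56.8 TPM and the water labelled knockouts 47.4, 58.3, 53.1, 69.0 and 46.6 TPM. The DSS controls had 36.2, 28.5 and 43.0 TPM and the DSS labelled knockouts 38.1, 31.6, 30.6 and 29.8 TPM. As deposited the treatments did not overlap, but the gap between 43.0 and 44.2 TPM was narrow and the difference was smaller than for the heavy chains, -0.41 among controls and -0.73 among labelled knockouts. *Tapbp* relative to the sum of *H2-K1* and *H2-D1* was 0.0521 to 0.0722 in the water mice and 0.0721 to 0.0941 after DSS.

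*Tap1*, at chr17:34187553-34197225, encodes a subunit of the peptide transporter. It measured 11.5, 6.73, 5.96 and 10.2 TPM in the water controls and 8.95, 11.3, 7.90, 15.4 and 12.9 TPM in the water labelled knockouts. After DSS it measured 2.00, 1.55 and 6.04 TPM among controls and 7.30, 1.23, 4.04 and 3.24 TPM among labelled knockouts. The mean was lower by 1.30 on the log2 scale among controls, which overlapped by 1 mouse, and by 1.43 among labelled knockouts, which did not overlap. *Tap2*, the partner subunit, lies at chr17:34203527-34216321 and ran from 0 to 5.59 TPM with water and from 0 to 1.64 TPM after DSS. *Nlrc5*, at chr8:94434356-94527272, ran from 0 to 2.51 TPM with water and from 0.0977 to 1.39 TPM after DSS. Both overlapped between treatments, and the authors' mean for *Tap2* corresponds to 13.1 estimated reads with water and 9.26 after DSS.

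*Erap1*, at chr13:74639568-74693201, was more abundant after DSS. The water controls had 12.7, 12.9, 12.7 and 16.3 TPM and the water labelled knockouts 11.2, 12.3, 13.8, 12.5 and 14.9 TPM. The DSS controls had 31.3, 32.8 and 18.6 TPM and the DSS labelled knockouts 28.8, 31.7, 31.7 and 29.5 TPM. As deposited all DSS mice were above all water mice, with a mean ratio of 2.01 among controls and 2.35 among labelled knockouts, but the treatments overlapped after rescaling, by rank and relative to the epithelial markers. Within a mouse, *Erap1* was 0.181 to 0.32 of *Tapbp* with water and 0.431 to 1.15 of *Tapbp* after DSS.

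As deposited, 4 of the 10 members (*H2-K1*, *H2-D1*, *H2-M3* and *Tapbp*) were lower in every DSS mouse than in every water mouse, against 4.16% of the 11247 genes averaging 1 TPM or more, among which were 8 members, without *H2-T3* and *Nlrc5*. *Erap1* alone was higher in every DSS mouse, against 18.9% of these genes. The median difference over the 11247 genes was 0.32 as deposited and 0.01 after a single median-of-ratios rescaling of all 16 mice, so the members are also given relative to this shift. After the rescaling 6 members did not overlap and were lower after DSS (*B2m* and *Tap1* in addition), against 6.96% of genes, and none was higher in all mice, against 4.52%. *Erap1* remained higher on average, by 0.59 among controls and 0.83 among labelled knockouts, with an overlap among controls. Relative to the epithelial markers of the same mouse, a scale chosen after seeing the data, the same 4 members as deposited were lower in every DSS mouse, against 6.05% of genes, and none was higher, against 2.5%. By rank within each mouse 3 members (*H2-K1*, *H2-M3* and *Tapbp*) were lower in every DSS mouse, against 5.63% of genes, and none was higher, against 10.1%. With each mouse scaled to an equal sum, 3 members (*H2-K1*, *H2-M3* and *B2m*) were lower in every DSS mouse, against 3.55% of genes, and *Erap1* was higher, against 11.6%. This scaling ended the separation of the treatments for *H2-D1* and *Tapbp*, and ranks ended it for *H2-D1*. *H2-K1* held places 155 to 206 with water and places 217 to 367 after DSS. *Nlrc5* was lower on average among controls on each TPM scale but 1.42 percentile points higher by rank.

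**Figure D2:**
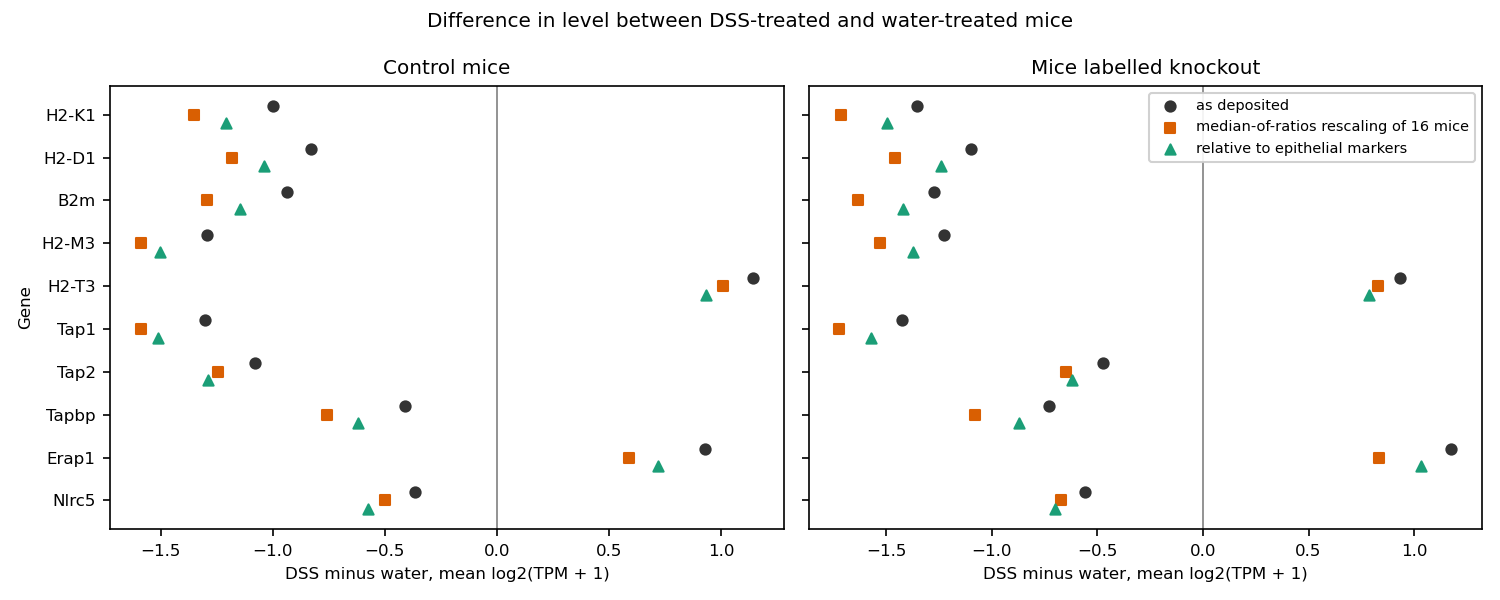
Difference in mean log2(TPM + 1) between DSS and water (x axis) for each gene (y axis), among controls (left) and the labelled knockouts (right), as deposited, after rescaling all 16 mice, and relative to the 10 epithelial markers of the same mouse. The sign was the same on all 3 scales for every gene, with *H2-T3* and *Erap1* to the right of 0.

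The cage also moved with these levels. After DSS the 2 mice of cage c, 1 of each genotype, had 215 and 300 TPM of *H2-K1*, against 151 to 195 TPM in the 5 mice of cage d. The same mice had 251 and 297 TPM of *H2-D1* against 162 to 205 TPM in cage d. Their *Tap1* was 6.04 and 7.30 TPM against 1.23 to 4.04 TPM, and their *Tapbp* was 38.1 and 43.0 TPM against 28.5 to 36.2 TPM. *Erap1* was lower in cage c, at 18.6 and 28.8 TPM against 29.5 to 32.8 TPM. In all, 4 of 10 members were higher in both mice of cage c, against 15.6% of 10899 genes, and 1 was lower, against 9.94%. The mean log2(TPM + 1) of the epithelial markers was also higher in cage c, at 8.97 and 9.16 against 8.66 to 8.76 in cage d. The same mean was higher in cage c for the class II genes, at 1.97 and 2.61 against 1.29 to 1.86, and by a narrow margin for the class I transcription regulators, at 3.53 and 3.54 against 3.15 to 3.52. The leukocyte markers overlapped, at 0.947 and 1.498 against 0.945 to 1.88. The part of these shifts in the split was not tested. This split was noticed after the values were seen, rests on 2 mice and was not tested. Without the mice of cage c, 5 members were lower in every DSS mouse (*Tap1* in addition), against 7.45% of genes, and *Erap1* was higher, against 26%. Among females only (water cage b), 5 were lower (*B2m* in addition), against 6.54% of genes, and *Erap1* was higher, against 23.6%. Both selections of mice were made after seeing the data.

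Promoter sequence is shown for the 3 heavy chains that were lower in every DSS mouse as deposited, for *B2m*, and for *Erap1*, which was higher as deposited. The separation of *H2-D1* and of *Erap1* did not hold on every scale. RefSeq (GRCm38.p6) gave a window of 250 bases before to 50 bases after the start for 8 of the 10 members, with none for *Tap2* and *Nlrc5*. The windows were searched on both strands for GATTCCCC, the heart of the class I enhancer A, AANNGAAA, a core of the interferon-stimulated response element, TGACG, a core of the X box, and CCAAT, the Y box. The stretches below run from 170 bases before the start base to 29 after it, 5′ to 3′ on the gene's strand, with matches in capitals. They lie at chr17:34000318-34000517, chr17:35262924-35263123, chr17:37270064-37270263, chr2:122147517-122147716 and chr13:74639683-74639882, in that order.
H2-K1: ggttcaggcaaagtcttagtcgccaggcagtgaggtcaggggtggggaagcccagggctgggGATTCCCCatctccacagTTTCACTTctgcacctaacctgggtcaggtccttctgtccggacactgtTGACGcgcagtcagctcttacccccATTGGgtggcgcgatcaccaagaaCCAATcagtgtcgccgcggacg
H2-D1: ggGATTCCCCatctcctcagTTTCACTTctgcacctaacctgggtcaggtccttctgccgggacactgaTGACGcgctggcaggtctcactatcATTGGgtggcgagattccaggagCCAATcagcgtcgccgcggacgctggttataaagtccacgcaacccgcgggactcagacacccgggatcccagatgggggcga
H2-M3: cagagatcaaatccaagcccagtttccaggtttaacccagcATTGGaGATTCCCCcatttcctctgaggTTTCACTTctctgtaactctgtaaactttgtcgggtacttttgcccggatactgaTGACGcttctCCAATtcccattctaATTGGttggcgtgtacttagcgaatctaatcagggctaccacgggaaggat
B2m: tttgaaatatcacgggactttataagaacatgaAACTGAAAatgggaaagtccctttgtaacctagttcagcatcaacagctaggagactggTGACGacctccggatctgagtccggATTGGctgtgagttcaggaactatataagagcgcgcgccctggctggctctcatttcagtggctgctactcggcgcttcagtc
Erap1: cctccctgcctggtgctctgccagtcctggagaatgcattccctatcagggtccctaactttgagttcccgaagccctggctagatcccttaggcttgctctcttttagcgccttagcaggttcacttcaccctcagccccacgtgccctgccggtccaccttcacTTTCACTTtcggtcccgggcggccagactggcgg

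*H2-K1*, *H2-D1* and *H2-M3* held all 4 motifs, with enhancer A, the interferon element, the X box and a Y box following each other in this order, and *H2-M3* had a further Y box match before enhancer A. Of 32817 promoter windows of this length, 6 held all 4, and 4 of these belonged to the 3 heavy chains, since *H2-K1* has 2 overlapping windows. GATTCCCC was present in 0.841% of all windows, AANNGAAA in 23.9%, TGACG in 20.8% and CCAAT in 37.4%. *B2m* held matches to all but GATTCCCC, and *Erap1* held only AANNGAAA, as did *H2-T3*. *Tapbp*, also lower in every DSS mouse as deposited, held only CCAAT, and *Tap1* held TGACG and CCAAT. The letters were chosen after the sequences had been seen, and a match is a description of the sequence only.

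Other genes of the pathway were listed by role. Of 16 further class I heavy chain and class I-like genes, 11 averaged 1 TPM or more, and 9 of these were lower on average after DSS over all mice, as are the list counts and medians that follow, with a median difference of -0.81 against 0.32 for all genes. Every DSS mouse was below every water mouse for 4 of the 11, against 4.16% of all genes. The largest differences among controls were those of *H2-M2* (-2.53), *H2-Q6* (-2.09) and *Fcgrt* (-1.23), the last of which encodes the neonatal Fc receptor. *H2-M2* ran from 2.57 to 8.64 TPM with water and from 0 to 0.482 TPM after DSS.

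The 7 loading chaperones and peptide-editing genes behaved differently, with 6 higher on average after DSS and a median difference of 0.96. *Pdia3*, the oxidoreductase of the loading complex, had 172 to 251 TPM with water and 312 to 461 TPM after DSS. *Canx* (calnexin) had 67.1 to 92.7 TPM with water and 102 to 190 TPM after DSS, and *Sec61b*, a translocon subunit, had 63.4 to 127 TPM with water and 140 to 206 TPM after DSS. These 3 did not overlap, against 18.9% of genes, and the rest of the list overlapped. *Tapbpl* had 11.9 to 20.8 TPM with water and 10.1 to 17.4 TPM after DSS. *Hspa5* had 390 to 718 TPM with water and 392 to 636 TPM after DSS, with a difference of -0.02 among controls. After rescaling none of the 7 kept apart, against 4.52% of genes higher and 6.96% lower, and the median was 0.61.

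The immunoproteasome list was split. *Psmb8*, a catalytic subunit, ran from 13.8 to 33.5 TPM with water and from 1.01 to 8.94 TPM after DSS, and *Psmb9* from 10.7 to 16.1 TPM and from 2.32 to 9.38 TPM, so that 2 of 5 genes were lower in every DSS mouse, against 4.16% of all genes. The proteasome activator *Psme2* had 19.99 to 45.9 TPM with water and 41.7 to 83.8 TPM after DSS, and *Psme1* was listed at 0 in 7 of 9 water mice and at 4.40 to 28.98 TPM after DSS. Both overlapped between treatments, as did *Psmb10*, at 29.8 to 42.2 TPM with water and 32.4 to 59.3 TPM after DSS. The median of the list was 0.16 as deposited and -0.19 after rescaling.

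Of 14 transcription regulators of class I genes, 13 averaged 1 TPM or more and their median difference of 0.34 was close to that of all genes, 0.32. *Irf9*, *Rfxap* and *Nfkb1* had the largest differences among controls, at 1.10, 0.91 and 0.76, and all 3 overlapped between treatments. As deposited 1 gene of the list was higher in every DSS mouse, against 18.9% of all genes. After rescaling none was higher, against 4.52%, and 1 was lower, against 6.96%. *Irf1*, which binds interferon-stimulated response elements, had 60.8 to 88.6 TPM with water and 57.0 to 117 TPM after DSS. The 14 genes of the interferon gamma axis had a median of -0.11, and 8 were lower on average. The largest differences among controls were those of *Ciita* (-1.53), *Gbp3* (-1.15) and *Cd274* (-1.14), of which *Ciita*, the regulator of class II genes, did not overlap. As deposited *Ciita* was the 1 gene of the 14 that was lower in every DSS mouse, against 4.16% of all genes. *Ifngr2*, a subunit of the interferon gamma receptor, was the 1 gene that was higher, against 18.9%. It had 23.7 to 30.3 TPM with water and 33.0 to 37.8 TPM after DSS. After rescaling none of the 14 was higher in every DSS mouse, against 4.52% of genes, and 2 were lower, against 6.96%. The difference of *Ifngr2* among controls fell from 0.39 to 0.05.

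The class II genes, which are strongly expressed by antigen-presenting leukocytes and can also be induced in epithelium, differed far more than the class I genes. All 6 class II genes averaging 1 TPM or more, *Ciita* among them, were lower in every DSS mouse, against 4.16% of all genes, a share that also stands beside the other marker counts that follow, and their median difference was -5.10. *H2-Aa* ran from 429 to 983 TPM with water and from 5.67 to 24.2 TPM after DSS, and *Cd74* from 255 to 611 TPM and from 1.91 to 13.4 TPM. All 8 macrophage and dendritic cell markers were also lower in every DSS mouse (median -5.33), as were 3 of the 7 B and plasma cell markers averaging 1 TPM or more (median -4.01) and 1 of the 4 T cell and intraepithelial lymphocyte markers (median -1.23). Large differences among controls were those of *Jchain* (-7.36), *C1qc* (-6.50), *Mzb1* (-4.75) and *Cd2* (-3.30). Stromal and endothelial markers had a median of -0.56 with no gene apart. Epithelial markers had a median of 0.06, or -0.30 after rescaling. *Epcam*, *Cdh1* and *Cdx2* were higher in every DSS mouse as deposited, against 18.9% of all genes. After rescaling no epithelial marker was, against 4.52%. The leukocyte list shares genes with the 3 narrower lists, and 12 of its 15 genes averaging 1 TPM or more were lower in every DSS mouse. The summed TPM of its markers was 2151 to 15302 with water and 28.8 to 509 after DSS. Fewer leukocytes and less RNA per leukocyte cannot be told apart in such libraries.

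**Figure D3:**
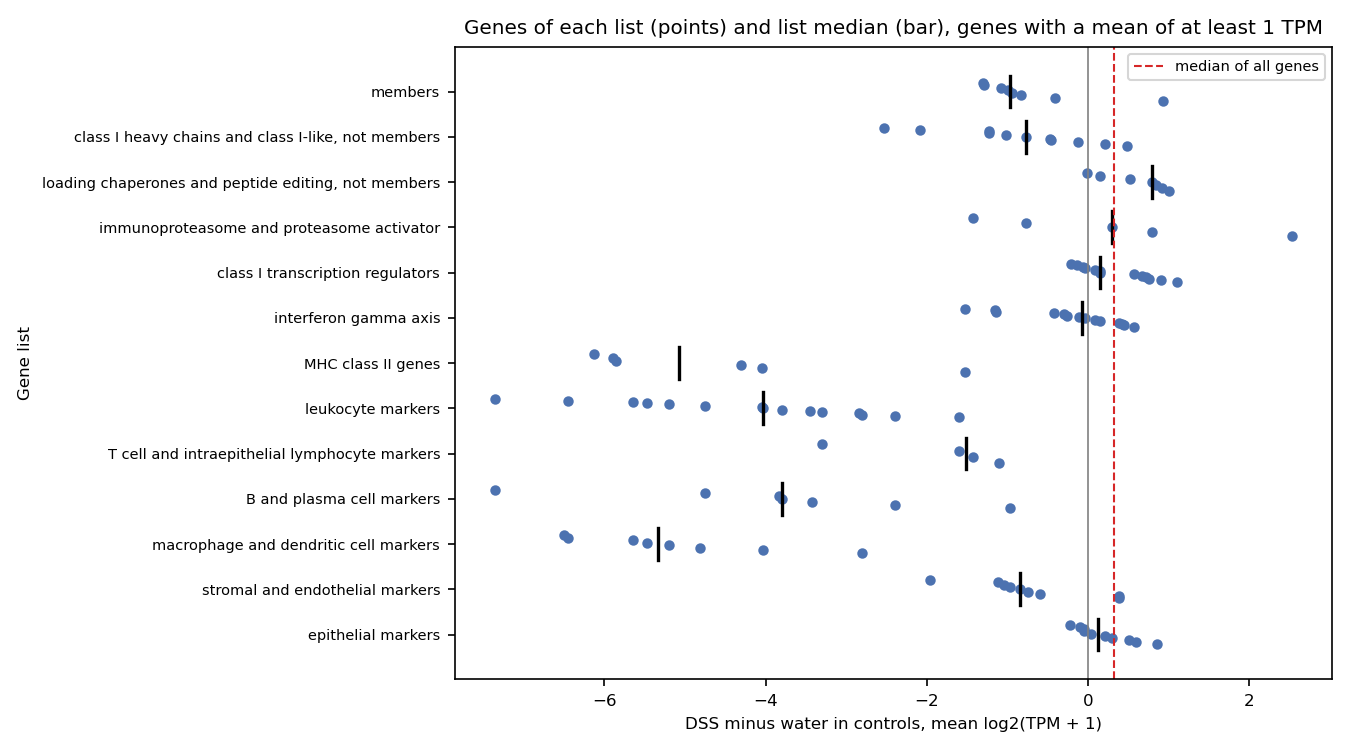
Difference in mean log2(TPM + 1) between DSS and water, controls only (x axis), for each gene averaging 1 TPM or more, by gene list (y axis); each point is a gene, black bars are list medians and the dashed line is the median of all 11247 genes, 0.32. Of the 8 members shown, 7 lie left of 0 and *Erap1* lies right of it.

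The members were next set against the leukocyte marker mean and against *Nlrc5* across mice, within each treatment, giving 38 relations. Among the 9 water mice *H2-M3* followed the leukocyte markers, with Pearson r = 0.936 (exact permutation p = 8.27e-05, adjusted p = 0.00314) and Spearman rho = 0.917 (exact permutation p = 0.00131, adjusted p = 0.0249). Without the 2 mice farthest from the median of the marker mean r was 0.965. For *B2m* r was 0.863 (exact permutation p = 0.00244, adjusted p = 0.0464) and rho was 0.867 (exact permutation p = 0.00451, adjusted p = 0.0571), and without the 2 farthest mice r was 0.636. *H2-K1* had r = 0.75 (exact permutation p = 0.0219, adjusted p = 0.104) and rho = 0.917 (exact permutation p = 0.00131, adjusted p = 0.0249), and without the 2 farthest mice r was 0.827. For *H2-D1* r was 0.852 (exact permutation p = 0.0048, adjusted p = 0.0603) and rho was 0.85 (exact permutation p = 0.00607, adjusted p = 0.0577), and without the 2 farthest mice r was 0.66. Neither water cage held 6 mice, so no correlation is given within a single cage. With both measures centred on the mean of each cage, a setting added after seeing the data, r over the 9 water mice was 0.927 for *H2-M3* (exact permutation within cages p = 0.00174, adjusted p = 0.0165) and 0.899 for *B2m* (exact permutation within cages p = 0.00382, adjusted p = 0.0242). It was 0.733 for *H2-K1* (exact permutation within cages p = 0.000347, the smallest they can give, adjusted p = 0.0066) and 0.834 for *H2-D1* (exact permutation within cages p = 0.0101, adjusted p = 0.0478). The cage-centred p-values were adjusted over 19 relations and those before over 38, so the adjusted values are not comparable. Centred r was 0.786 for *Tap1*, 0.759 for *Nlrc5*, 0.599 for *Tapbp*, 0.335 for *Tap2*, 0.118 for *Erap1* and -0.264 for *H2-T3*. Their adjusted p was 0.0763 or more (exact permutation within cages). Both Pearson calls were lost with a pseudocount of 0.1 (r = 0.875 for *H2-M3*, exact permutation adjusted p = 0.0553, and r = 0.789 for *B2m*, exact permutation adjusted p = 0.0809), and with macrophage and dendritic cell markers in place of the leukocyte list, where r was 0.455 and 0.363. They were also lost with T cell and intraepithelial lymphocyte markers (r = 0.858 for *H2-M3*, exact permutation adjusted p = 0.0524, and r = 0.604 for *B2m*, exact permutation adjusted p = 0.286). With 1 mouse left out, p-values were adjusted over 19 relations, fewer than the 38 of the main calls. The call for *B2m* was then lost without water control 3 (r = 0.745, exact permutation adjusted p = 0.124) and without water labelled knockout 4 (r = 0.828, exact permutation adjusted p = 0.0625). Its exact permutation p was 0.00982 without water control 4, 0.00590 without water labelled knockout 1 and 0.00543 without water labelled knockout 2. Whether the call holds there over 38 relations was not tested. The call for *H2-M3* held over 19 relations without each of the 9 mice.

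Among the 7 DSS mice no relation to the leukocyte markers had an adjusted p under 0.05: r was 0.154 for *H2-K1* (exact permutation p = 0.73), 0.00871 for *H2-D1* (exact permutation p = 0.985), 0.121 for *H2-M3* (exact permutation p = 0.787) and 0.114 for *B2m* (exact permutation p = 0.819). Whether the relations differ between the treatments was not tested. Against *Nlrc5*, *H2-M3* had r = -0.865 among the DSS mice (exact permutation p = 0.00635, adjusted p = 0.0603) and 0.816 among the water mice (exact permutation p = 0.00855, adjusted p = 0.0649), and neither passed the correction. The low levels of *Nlrc5*, with a median of 1.16 TPM in the water mice and 0.344 TPM in the DSS mice, limit these relations.

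**Figure D4:**
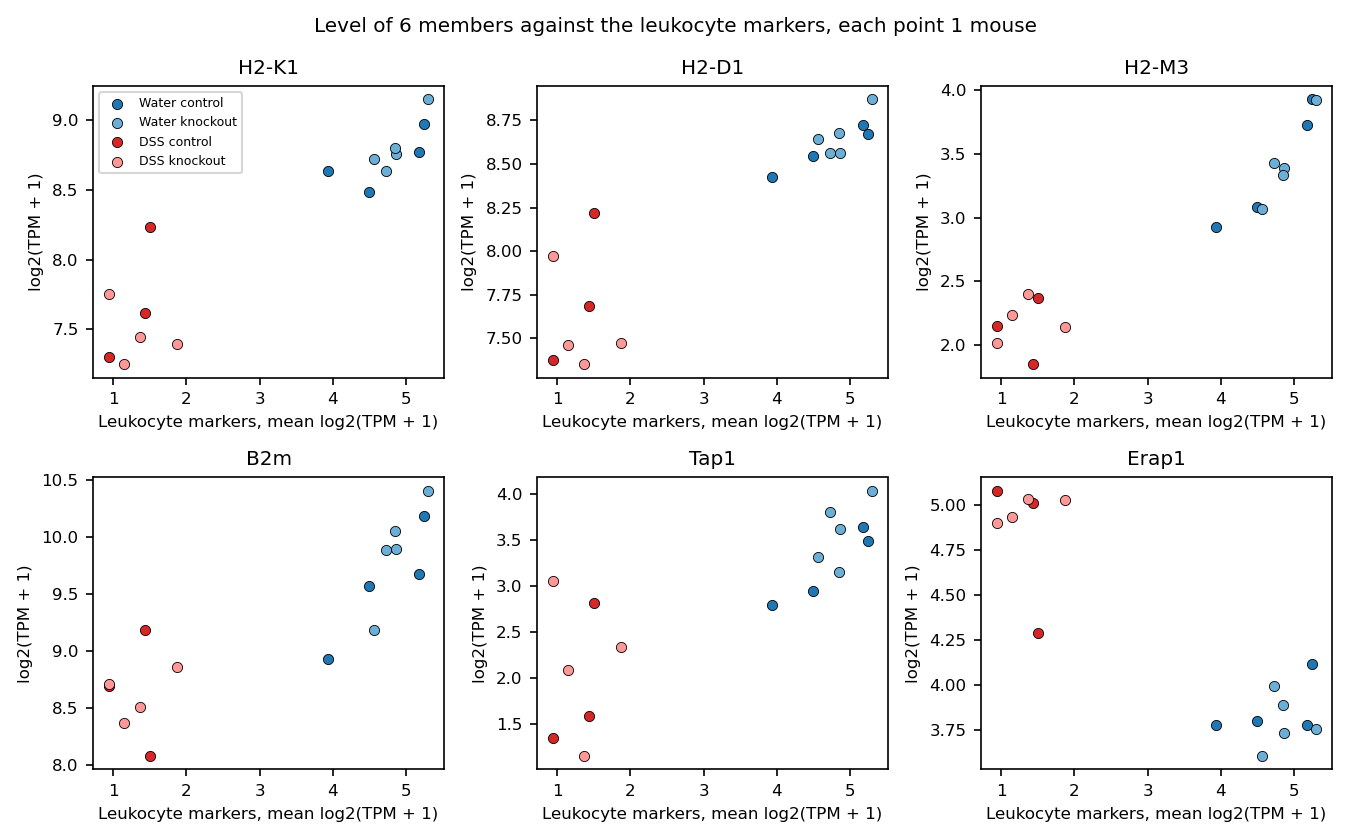
Level of 6 members as log2(TPM + 1) (y axis) against the mean log2(TPM + 1) of 19 leukocyte markers (x axis); each point is a mouse, coloured by treatment and labelled genotype. The DSS mice lie between 0.94 and 1.88 on the x axis and the water mice between 3.93 and 5.30, with no mouse in between.

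The genes most like 4 of the members were sought among 6220 genes averaging 5 TPM or more in both tables, by Pearson's r of log2(TPM + 1) over the 16 mice after centring within each treatment. They are given as a description, since all values come from the same libraries. The heavy chains *H2-T23* (0.952) and *H2-D1* (0.901) were most like *H2-K1*, followed by *Grcc10* (0.887), *Tapbp* (0.877) and *Man2b2* (0.869). Of the 1589 31-base words of *H2-K1*, 269 also occur in *H2-D1* and 141 in *H2-T23*. The estimates of these 3 heavy chains may therefore not be independent. Among the genes most like *Tap1* were *Mrpl54* (0.844), *Kdelr1* (0.827), *Gadd45b* (0.818) and *Irf1* (0.817). For *Nlrc5* they were *Lcp1* (0.854), *Ighv1-54* (0.852), *Cnn2* (0.817), *Impact* (0.815) and *Fhl1* (0.793), and for *H2-T3* they were *Ppp3ca* (0.818), *Atp6v1b2* (0.798), *Tdrd3* (0.712), *Cers5* (0.707) and *Acp2* (0.683). Among the members, *Erap1* had r = -0.577 with *H2-K1* and -0.654 with *H2-D1*, but 0.549 with *B2m* and 0.295 with *Nlrc5*. *B2m* had r = 0.145 with *H2-K1* and 0.726 with *Nlrc5*.

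The study asked what loss of TNFR2 in the epithelium does in health and in colitis, and the members did not separate the labelled genotypes. By the study's methods 1 exon of *Tnfrsf1b* is flanked by loxP sites, so its listed transcripts may still be counted after recombination and their level is no check of the labels. *Tnfrsf1b* measured 13.5, 15.4, 11.1 and 15.5 TPM in the water controls, 11.4, 10.1, 9.23, 14.8 and 13.3 TPM in the water labelled knockouts, 22.2, 13.9 and 13.3 TPM in the DSS controls and 27.0, 13.5, 15.2 and 17.7 TPM in the DSS labelled knockouts, with overlap in both treatments. By limma, 0 of the 8 members tested were called after DSS (Benjamini-Hochberg adjusted p under 0.05), against 0.00918% of 10899 genes, and 0 of 9 with water, against 0.00905% of 11046 genes. None had an unadjusted p under 0.05 in either treatment, against 2.65% of genes after DSS and 5.28% with water.

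After DSS the log2 difference (labelled knockout minus control) was -0.26 ± 0.23 (SE) for *H2-K1*, -0.20 ± 0.23 for *H2-D1* and -0.04 ± 0.26 for *B2m*. It was 0.24 ± 0.51 for *Tap1* and 0.18 ± 0.20 for *Erap1*. With water it was 0.10 ± 0.14 for *H2-K1*, 0.29 ± 0.29 for *B2m*, 0.36 ± 0.24 for *Tap1* and 0.19 ± 0.14 for *Tapbp*. The differences of *Tap2* (-0.32 ± 0.53), *Nlrc5* (-0.14 ± 0.40) and *Erap1* (-0.07 ± 0.12) were negative. In all, 6 members were higher and 3 lower in the water labelled knockouts. With equal sums the difference with water was -0.14 for *H2-K1* and -0.046 for *Tapbp*. In an exact two-sided permutation test of the mice, the members' TPM gave p from 0.286 (*Nlrc5*) to 0.971 (*H2-T3*) after DSS, where the smallest possible p is 0.0286, and from 0.206 (*Tap1*) to 0.897 (*H2-M3*) with water, where it is 0.00794. No member had genotypes that did not overlap, against 3.68% of genes after DSS and 1.55% with water.

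**Figure D5:**
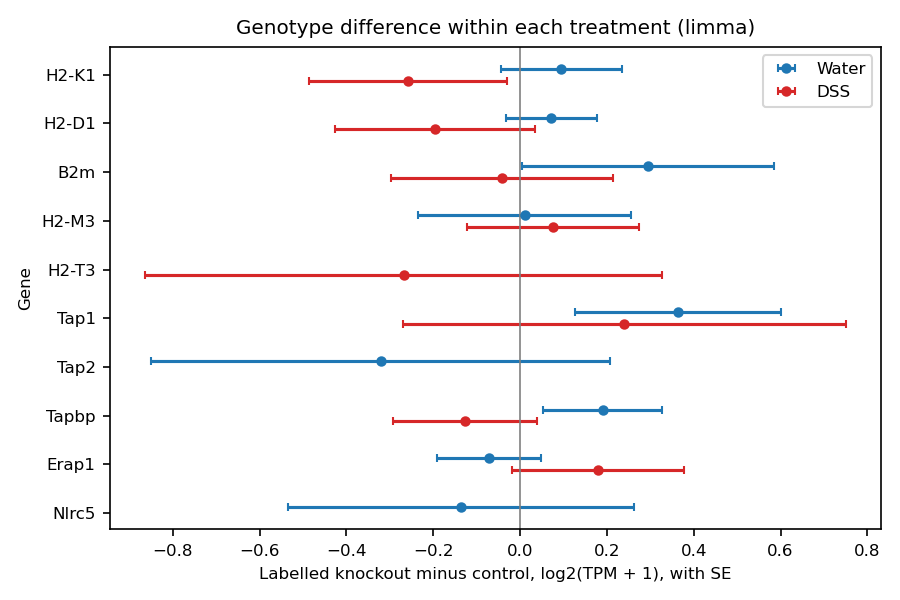
Difference in log2(TPM + 1) between labelled knockouts and controls (x axis, with SE from limma) for the members averaging 1 TPM or more (y axis), with water (blue) and after DSS (red). The differences lie between -0.32 and 0.36, and none was called.

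The water mice also allowed cage a (males) to be compared with cage b (females) with genotype in the model, where cage and sex cannot be told apart. None of 9 members was called by limma, against 0.0362% of 11046 genes, and 1 had an unadjusted p under 0.05, against 6.83%. This was *B2m*, at 709 ± 214 TPM (SD, n = 4) in cage a and 1056 ± 225 TPM (SD, n = 5) in cage b, with a log2 difference of -0.57 ± 0.24 (SE) by limma (unadjusted p = 0.0401, adjusted p = 0.704). All 9 differences were negative, with a median of -0.20 against -0.00153 for all genes. The leukocyte markers were lower in cage a as well, for 13 of 15 genes tested, with a median of -0.38. Stromal and endothelial markers were lower in cage a for 9 of 9 genes, with a median of -0.40, and epithelial markers were higher for 10 of 10, with a median of 0.16. The part of these shifts in the members' differences was not tested.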

How the data were processed

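RNA of sorted EpCAM+ colonic cells from 16 mice was quantified by the authors with kallisto and sleuth (mm10, by the submitters' processing notes). Deposited TPM were scaled by the authors within each treatment's table, and only APPRIS principal transcripts are listed. The deposited mean natural log of estimated counts (the authors' mean) is used for depth alone, and the authors' test columns were not used. Of 29373 lines per table, 385 repeats were dropped and TPM was summed by gene symbol. Positions are from GENCODE M21 (GRCm38).

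Genotype and cage were tested within a table by limma 3.58.1 (R 4.3.3) with a variance trend on log2(TPM + 1), on genes averaging 1 TPM or more, and p-values were adjusted by Benjamini-Hochberg. The pseudocount understates fold changes of low genes. Single genes were compared by exact permutation. The replicate numbers mark different animals and were not used as pairs. The fit was tested on simulated data. Tests between tables, including the interaction, were not run. Scripts used Python 3.11.15, numpy 2.4.6, pandas 2.3.3, scipy 1.17.1 and matplotlib 3.10.9. TPM keep no read depth. The precision of a value depends on the reads behind it, which the tests do not use, and on how many mice a group has.

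The members, gene lists and tests were chosen with earlier results of these data known. Genes named from a list are those called or, with none called, up to 3 with the largest DSS minus water difference in the controls. *Irf1*, *H2-T23* and a few further genes were named for their role or likeness. *Tapbpl*, *Hspa5* and *Psmb10* were named to show genes of their lists that overlapped between treatments. Alternatives were pseudocounts, filters, rescalings, ranks, cage, replicate block, other marker lists and leaving out each mouse. Mice are separate animals. 1 result of the search for like genes is not reported here.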

Additional observations from a re-analysis of the deposited data

Results flagged for a closer look

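Of 30 sets of values (10 members in each group of 4 or 5 mice), 6 held a mouse far from the others of its group by Dixon's ratio, where chance gives about 1 in 20. Water labelled knockout 4 was highest for *H2-K1*, at 567 TPM against 397 to 444 TPM in the other 4 mice of its group. DSS labelled knockout 1, of cage c, was highest for *H2-D1* at 251 TPM. Water control 4 was highest for *Tapbp* at 56.8 TPM and for *Erap1* at 16.3 TPM. The other 2 sets are of *H2-T3*, which was above 0 in 1 mouse of each water group, at 0.789 TPM in water control 3 and at 0.691 TPM in water labelled knockout 4. With every other mouse of the group at 0, any value above 0 gives the highest possible ratio, so these 2 sets cannot be read against the chance rate.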

How the results depend on the processing

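No genotype or cage setting called a member. Over all genes the genotype test called 1 gene after DSS and 1 with water. It called 0 in both with a pseudocount of 0.1 and 0 in both with the replicate block. Without a filter it called 0 after DSS and 4 with water, and on genes averaging 5 TPM or more it called 0 with water. Leaving out each mouse gave 0 to 3 after DSS, 1 to 2 with water and 3 to 7 for cage, where 4 were called. The replicate numbers mark different animals and did not pair them: deviations of same-numbered mice correlated at -0.197 to 0.0932.

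Small genotype differences changed sign. After DSS *B2m* (-0.04) became 0.084 with equal sums and 0.040 with the replicate block. With water, equal sums gave -0.14 for *H2-K1*, -0.17 for *H2-D1*, -0.20 for *H2-M3* and -0.046 for *Tapbp*, the cage covariate gave -0.016 for *H2-M3*, and a pseudocount of 0.1 gave 0.11 for *Nlrc5*. Leaving out each mouse gave, after DSS, -0.062 to 0.20 for *H2-M3*, -0.33 to 0.22 for *B2m*, -0.058 to 0.69 for *Tap1*, -0.39 to 0.032 for *H2-D1*, -0.28 to 0.010 for *Tapbp*, -0.072 to 0.32 for *Erap1* and -0.78 to 0.093 for *H2-T3*. With water it gave -0.15 to 0.18 for *H2-M3*, -0.12 to 0.012 for *Erap1* and -0.67 to 0.014 for *Tap2*, and for cage -0.28 to 0.024 for *Tap1* and -0.62 to 0.32 for *Tap2*.

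The count of members higher in every DSS mouse, 1 as deposited, was 0 after rescaling, 0 by rank and 0 relative to the epithelial markers. The female-only, cage c, epithelial-marker and cage-centred settings were chosen after seeing the data. The members lower in every DSS mouse numbered 3 to 6 over the settings, and 4 to 5 leaving out each mouse, with 5 without DSS control 1.

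Relations within the DSS mice were unstable. With the leukocyte markers a pseudocount of 0.1 gave r = -0.0452 for *H2-D1*, -0.0548 for *B2m* and -0.0789 for *Nlrc5*, and -0.0385 for *Tap2* against *Nlrc5*. Rescaling gave -0.0657 for *H2-D1*. T cell markers gave -0.379 for *H2-K1*, -0.268 for *H2-D1*, -0.426 for *H2-M3*, -0.335 for *Tapbp* and 0.362 for *Erap1*. Macrophage markers gave -0.204 for *B2m*, and 0.35 for *H2-T3* in water mice. Leaving out each mouse gave, against the leukocyte markers, -0.102 to 0.495 for *H2-K1*, -0.27 to 0.281 for *H2-D1*, -0.0587 to 0.348 for *H2-M3*, -0.147 to 0.39 for *B2m*, -0.201 to 0.505 for *Tap1*, -0.169 to 0.485 for *Tapbp*, -0.486 to 0.324 for *Erap1*, -0.579 to 0.383 for *H2-T3* and -0.0613 to 0.219 for *Nlrc5*. Against *Nlrc5* it gave -0.0325 to 0.601 for *H2-K1*, -0.33 to 0.456 for *Tap1* and -0.531 to 0.321 for *Tap2*. Among the water mice it gave -0.774 to 0.521 for *H2-T3* against the leukocyte markers, -0.631 to 0.492 for *H2-T3* against *Nlrc5* and -0.037 to 0.57 for *Tap2* against *Nlrc5*. The cause of these changes was not tested.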
